A study of Mus musculus with 4 samples.

Results

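The genes described here are 10 costimulatory molecules of T cells, of 47643 genes in the count table. They were taken from a list of names, which was written with earlier results of these data known. Icos and Cd28 encode receptors of the CD28 family, Tnfrsf4 (OX40), Tnfrsf9 (4-1BB), Tnfrsf18 (GITR), Tnfrsf1b (TNF receptor 2) and Cd27 encode receptors of the tumour necrosis factor (TNF) receptor family, and Cd40lg encodes a ligand of the same system. Cd226 (DNAM-1) and Slamf1 encode adhesion and signalling receptors of the immunoglobulin superfamily. All 10 passed the filter on low counts and were tested.

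A T cell that meets its antigen receives one signal through the T cell receptor and others through costimulatory receptors, which set how far the cell divides, survives and makes cytokines. CD28 is present on resting CD4+ T cells and binds CD80 and CD86. ICOS is induced by activation, binds ICOS ligand and signals mainly through phosphoinositide 3-kinase. OX40, 4-1BB and GITR are also induced by activation and, like CD27 and TNF receptor 2, recruit TRAF adaptors that lead to NF-κB. CD40 ligand on the T cell engages CD40 on B cells and antigen-presenting cells.

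The cells were CD4+ T cells sorted from the spleens of Tg4 Nr4a3-Tocky Il10-GFP mice 24 h after the peptide [4Y]-MBP was given under the skin at 4 mg/kg. The Tg4 transgene gives the T cells a receptor for a myelin basic protein peptide, Nr4a3-Tocky is a fluorescent Timer protein driven by the Nr4a3 gene, which T cell receptor signals switch on, and EGFP reports Il10. Both populations carried every allele, had received the peptide and were sorted as Timer+, so that they differed by label only in EGFP. There were 2 libraries of Il10-EGFP+ (below, EGFP+) and 2 of Il10-EGFP− (below, EGFP−) T cells, from replicate mice, and no library of untreated mice. Whether the positive and negative cells of one number came from one mouse was not given in the sources used here. The study's methods state that one further pair of replicates was dropped as an outlier, and it was not analysed here. The comparison asked how T cells that had switched on Il10 within a day of antigen differed from activated T cells of the same strain that had not.

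The libraries held 644679 to 730330 counts, and Il10 itself had 0 counts in both EGFP− libraries and 29 and 41 in the EGFP+ libraries. Nr4a3, the gene that drives the Timer reporter, had 16 and 11 counts in the EGFP− and 3 and 2 in the EGFP+ libraries, a difference of -2.27 on the log2 scale (standard error 0.72, adjusted p = 0.0569 in edgeR). All 10 CD4 T cell markers were detected in every library, with Cd4 at 149 to 209 counts. Counts came from a 3′ end method (QuantSeq), which does not scale with transcript length, and CPM below are counts scaled to a common library size with edgeR's TMM factors. Across the 9608 genes tested, the quasi-likelihood test of edgeR called 393 genes at a Benjamini-Hochberg adjusted p under 0.05, of which 226 were higher and 167 lower in EGFP+ T cells. With 2 libraries in a population the error of each value rests on few samples, and a p-value measures only the spread between these libraries.

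Icos was the 1 member of 10 that differed between the populations, and it was higher in EGFP+ T cells. For comparison, 4.09% of all tested genes were called in either direction, 2.35% higher and 1.74% lower, and among genes with 20 or more counts on average 6.71% were called. Icos had 248 and 270 counts in the EGFP− libraries and 415 and 438 counts in the EGFP+ libraries, or 336.6 and 393.9 CPM against 657.6 and 631.9 CPM. Both EGFP+ libraries lay well above both EGFP− libraries. The means were 365.3 ± 40.5 and 644.7 ± 18.2 CPM (SD, n = 2 each), a 1.77-fold difference with a 95% interval of 1.45 to 2.15, which on the log2 scale was 0.82 (standard error 0.14), with an adjusted p of 8.8e-05 in edgeR. In the authors' rlog values, which are on a log2 scale and shrink differences, Icos stood at 7.99 and 8.14 in the EGFP− and at 8.69 and 8.65 in the EGFP+ libraries, a difference of 0.60. Over 8 other tests, filters and scalings its adjusted p ran from 3.7e-06 to 0.0142, among them DESeq2, limma voom and limma on the rlog values, which called 1.17%, 4.25% and 2.06% of all genes. With each library left out in turn the log2 fold change ran from 0.71 to 0.94 and was called in 4 of 4 fits. In bulk samples, fewer cells of a type and less RNA per cell cannot be told apart, so a higher level can mean more cells with Icos or more Icos mRNA per cell.

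Cd28, the founding receptor of the family, had 292 and 249 counts in the EGFP− and 331 and 315 counts in the EGFP+ libraries. The EGFP+ libraries were again the higher ones, at 524.5 and 454.4 CPM against 396.4 and 363.3 CPM. The log2 fold change was 0.36 (standard error 0.14), with an interval of 0.075 to 0.65 and an unadjusted p of 0.0145 in edgeR. After Benjamini-Hochberg adjustment over all genes, edgeR gave 0.162, and none of the 8 other tests, filters and scalings called Cd28 (adjusted p 0.0821 to 0.506). Set against each other within a library, Icos took 45.9% (95% Wilson interval 41.8 to 50.1) and 52.0% (47.7 to 56.3) of the summed Icos and Cd28 counts in EGFP− T cells, and 55.6% (52.0 to 59.2) and 58.2% (54.6 to 61.6) in EGFP+ T cells. These intervals cover counting error only. The Icos share was thus above that of both EGFP− libraries in each EGFP+ library, but the interval of the second EGFP− library overlapped both of theirs.

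**Figure D1:**
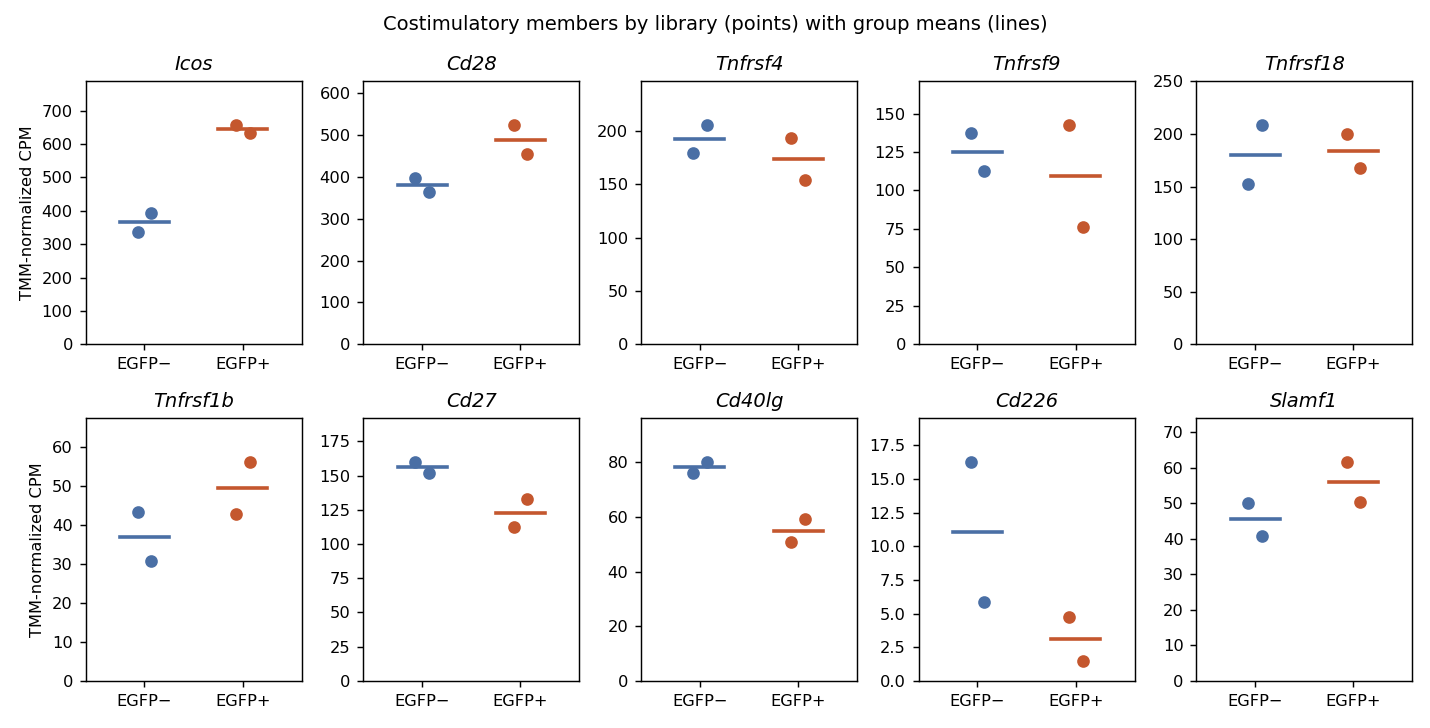
TMM-scaled CPM of the 10 members in each library, with one panel per gene, points for the 2 libraries of each population and a line for their mean (each vertical axis starts at 0 and has its own range). Icos stands out with 336.6 and 393.9 CPM in the EGFP− and 657.6 and 631.9 CPM in the EGFP+ libraries, while the points of Tnfrsf4, Tnfrsf9, Tnfrsf18 and Tnfrsf1b overlap between the populations.

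None of the 5 TNF receptor family members passed the test in either direction. edgeR, DESeq2 and limma voom each called 0 of the 5 and found 0 with an unadjusted p under 0.05, whereas the rlog values tested with limma gave 0 calls and 1 such gene (Cd27). Added together, the 5 receptors had 671.9 and 709.1 CPM in EGFP− and 690.9 and 587.2 CPM in EGFP+ T cells. The second EGFP+ library was the lowest of the 4, and the first lay between the EGFP− libraries.

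Tnfrsf4 (OX40), which sustains the survival and memory of activated CD4+ T cells, had 132 and 141 counts in the EGFP− and 122 and 107 counts in the EGFP+ libraries, or 192.4 ± 18.8 and 173.8 ± 27.5 CPM (SD, n = 2 each). The values overlapped, with a log2 fold change of -0.15 (95% interval -0.51 to 0.22, adjusted p = 0.787 in edgeR). Tnfrsf18 (GITR), its neighbour in the genome, had 112 and 143 against 126 and 116 counts. Its populations were level at 180.3 ± 40.0 and 183.5 ± 22.8 CPM, and the interval of its log2 fold change ran from -0.35 to 0.40.

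Tnfrsf9 (4-1BB), a receptor induced shortly after T cell receptor signals, had 101 and 77 counts in the EGFP− libraries and 90 and 53 in the EGFP+ libraries. The first EGFP+ library held the highest level of the 4, at 142.6 CPM, and the second the lowest, at 76.5 CPM. The log2 fold change of -0.20 (95% interval -0.65 to 0.25, adjusted p = 0.762 in edgeR) rested on that difference within the EGFP+ population. It was -0.71 without the first of these libraries and 0.19 without the second.

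Tnfrsf1b (TNF receptor 2), which binds TNF and is prominent on regulatory and activated T cells, was the TNF receptor member with the fewest counts, at 32 and 21 in EGFP− and 27 and 39 in EGFP+ T cells. The libraries overlapped, and the log2 fold change was 0.42 with an interval of -0.24 to 1.08 and an adjusted p of 0.611 in edgeR. Cd27, which is present on resting T cells and is shed or lost with prolonged activation, had 118 and 104 counts in the EGFP− and 71 and 92 counts in the EGFP+ libraries. Both EGFP+ libraries, at 112.5 and 132.7 CPM, were below both EGFP− libraries, at 160.2 and 151.7 CPM. The difference of -0.34 on the log2 scale (95% interval -0.74 to 0.05) did not pass the test (adjusted p = 0.421 in edgeR).

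Cd40lg, the T cell's ligand for CD40, had 56 and 55 counts in EGFP− and 32 and 41 counts in EGFP+ T cells, or 78.1 ± 3.00 and 54.9 ± 5.97 CPM (SD, n = 2 each). The EGFP+ libraries were both the lower ones, with a log2 fold change of -0.50 (95% interval -1.04 to 0.04), and the adjusted p was 0.375 in edgeR. Cd226, an adhesion receptor that binds CD155 and CD112, was close to the limit of detection. It had 12 and 4 counts against 3 and 1, and its log2 fold change of -1.82 carried an interval of -3.64 to 0.0047 and an adjusted p of 0.325 in edgeR. It was -2.81 without the first EGFP+ library, -1.20 without the second, and -0.08 in the rlog values. Slamf1, a self-binding receptor of the SLAM family, had 37 and 28 against 39 and 35 counts, with the EGFP+ libraries at 61.8 and 50.5 CPM just above the EGFP− libraries at 50.2 and 40.9 CPM. Its log2 fold change was 0.29 (95% interval -0.32 to 0.90, adjusted p = 0.734 in edgeR).

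The 10 members did not share a direction. By CPM, 3 members (Icos, Cd28 and Slamf1) had both EGFP+ libraries above both EGFP− libraries, 3 (Cd27, Cd40lg and Cd226) had both below, and 4 overlapped. Over all tested genes the populations did not overlap for 44.6%, with 22.3% above and 22.3% below, and 3 of 10 members in each direction is near that background. The log2 fold change was positive for 5 members and negative for 5, and their median was -0.06, beside 2.5e-05 over all genes tested. Summed over the 10, the level was 1547 and 1593 CPM in EGFP− and 1990 and 1785 CPM in EGFP+ T cells. Icos alone made up 21.8% and 24.7% of the members' counts in the EGFP− libraries and 33.0% and 35.4% in the EGFP+ libraries.

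**Figure D2:**
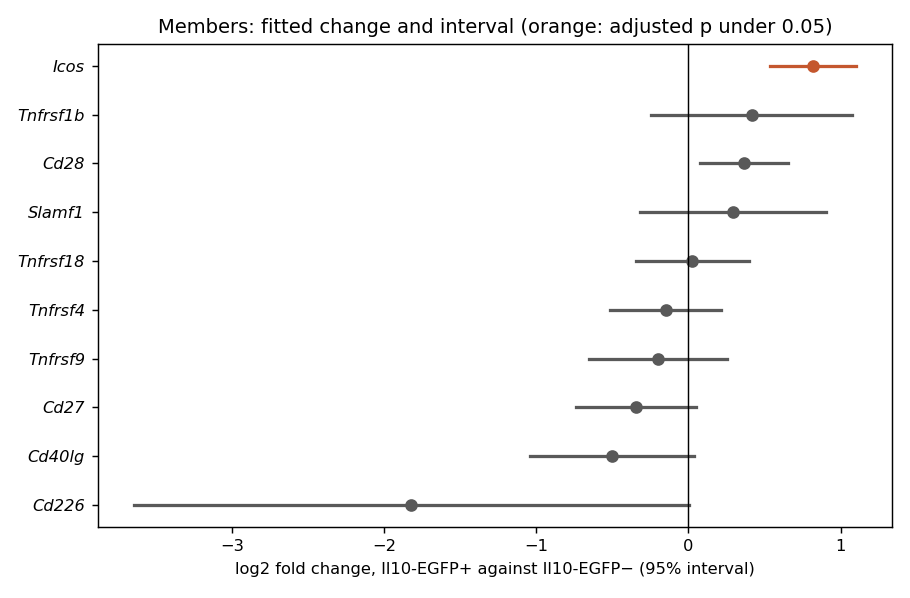
Fitted log2 fold change of each member between EGFP+ and EGFP− T cells (points) with its 95% interval (lines), from edgeR's fit over 9608 genes, in order of size. Icos, in orange, is the member with an adjusted p under 0.05, at 0.82, and the interval of Cd226, with at most 12 counts in a library, runs from -3.64 to 0.0047.

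The directions of the members held under most of the alternatives. Of 148 member values over 15 alternatives, 144 kept their direction and stayed called or uncalled. The other 4 were changes of sign of log2 fold changes that were not called, each after a library was left out: Tnfrsf4 to 0.0067 and Tnfrsf9 to 0.19 without the second EGFP+ library, and Tnfrsf18 to -0.19 without the first EGFP− library and to -0.10 without the first EGFP+ library. The stricter threshold reused the main fit, so no direction could change there. DESeq2 gave no adjusted p for 1 member, and for 3 with a replicate block, and these were taken as uncalled. Apart from the 4 fits that left out a library, every alternative used the same 4 libraries.

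**Figure D3:**
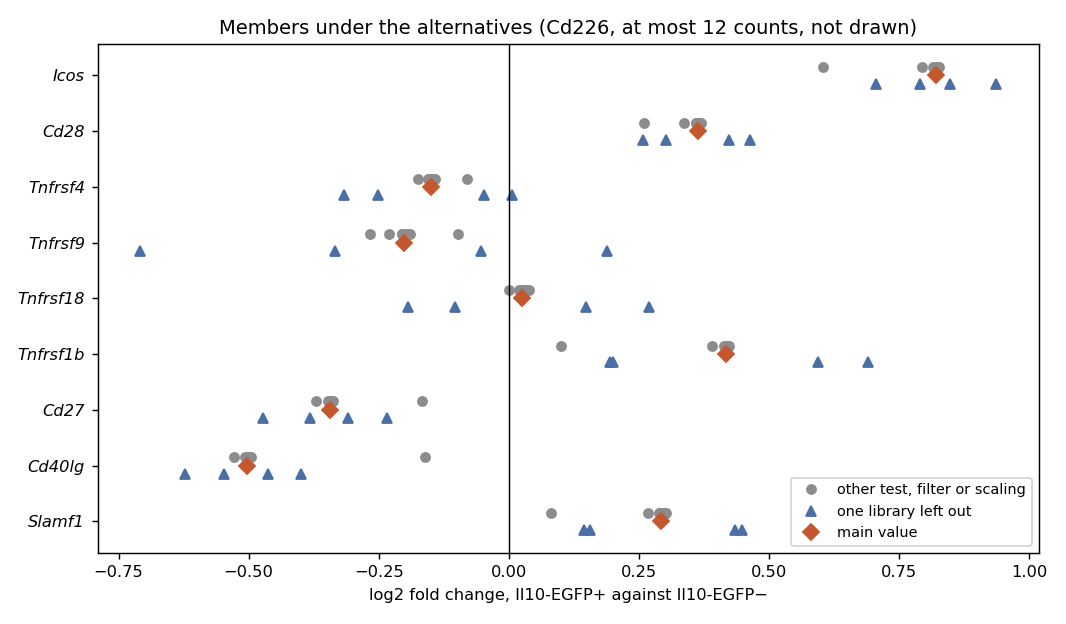
Log2 fold change of 9 members under the main test (orange diamonds), 8 other tests, filters and scalings (grey circles) and with 1 library left out in turn (blue triangles), with Cd226 left out for its low counts. Icos stays between 0.60 and 0.94 throughout, and Tnfrsf9 spreads from -0.71 to 0.19 with the library left out.

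The markers of CD4 T cells were themselves somewhat higher in EGFP+ T cells. The 10 markers summed to 2284 and 2308 CPM in the EGFP− and 2884 and 2848 CPM in the EGFP+ libraries, 9 of the 10 had a positive log2 fold change, and 1 (Trac, the constant region of the T cell receptor alpha chain) was called. Per 100 counts of these markers, a measure chosen after the values were seen and given without a test, Icos had 14.7 and 17.1 counts in EGFP− and 22.8 and 22.2 counts in EGFP+ T cells, and was above in both EGFP+ libraries. Cd28 had 17.3 and 15.7 against 18.2 and 16.0, and overlapped. Because the sum of the markers was higher in EGFP+ T cells, this scale moves every gene down in EGFP+ alike: 10.1% of all tested genes were above and 43.4% below on it. Of the members, 1 was above, 4 (Tnfrsf4, Cd27, Cd40lg and Cd226) were below and 5 overlapped, and the share below is near that background.

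**Figure D4:**
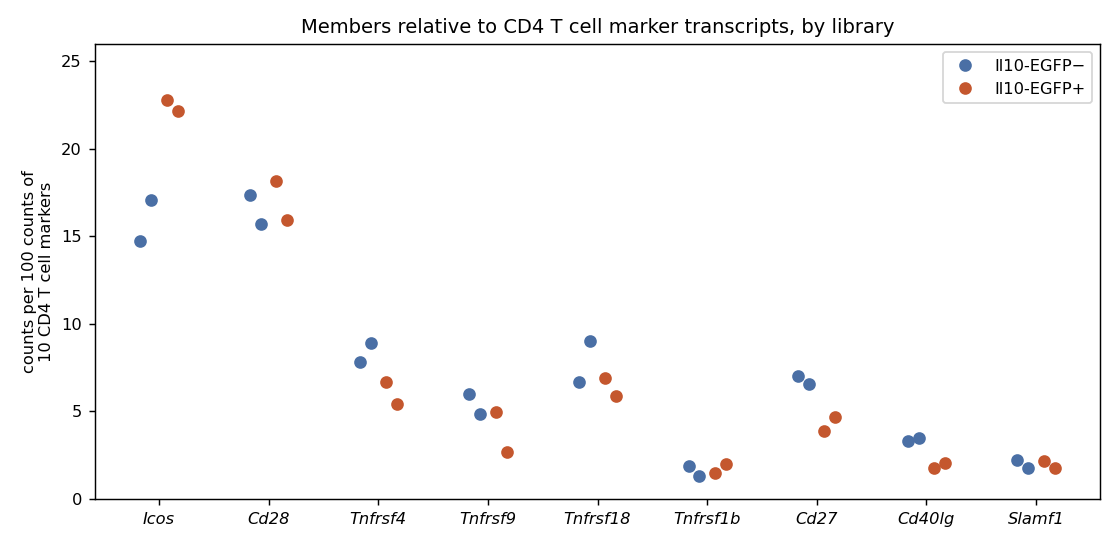
Counts of 9 members per 100 counts of the 10 CD4 T cell markers in each library (blue, EGFP−; orange, EGFP+), with Cd226 left out for its low counts. Icos is above in both EGFP+ libraries (22.8 and 22.2 against 14.7 and 17.1), on a scale that puts 43.4% of all tested genes below in EGFP+ T cells.

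Markers of B cells and of myeloid cells were mostly higher in EGFP+ T cells as well. The CD8 or NK list and the Foxp3 regulatory T cell list were divided. B cell markers summed to 115.4 and 157.6 CPM in the EGFP− and 437.3 and 516.5 CPM in the EGFP+ libraries, mostly from the immunoglobulin genes Ighm and Igkc. Of the 10 markers, 9 had both EGFP+ libraries above both EGFP− libraries, and 4 of the 8 tested were called higher (Ighm, Igkc, Cd22 with 4 and 0 against 14 and 18 counts, and Jchain with 0 and 0 against 15 and 16 counts). The exception was Cd79a, with 2 and 0 against 0 and 0 counts. Cd22 and Jchain passed the filter of 10 counts only through the EGFP+ libraries, where they are high. Their calls therefore add no support as counts. DESeq2 and limma on the rlog values each called 2 of the 8 tested B cell markers, and limma voom called 3. Myeloid markers summed to 111.3 and 138.6 against 385.0 and 200.5 CPM, with 8 of 9 tested positive on the log2 scale, 2 called higher (Lyz2 with 29 and 23 against 66 and 34 counts, and S100a8 with 1 and 17 against 58 and 28 counts) and Adgre1 at 0. DESeq2 and limma on the rlog values called 0 of these 9, and limma voom called 1. CD8 or NK markers summed to 51.6 and 96.3 against 103.0 and 116.9 CPM, with 1 of 6 called (Gzma) and Ncr1 at 0. Of the 6 tested, 3 were positive and 3 negative on the log2 scale. Cd8a (4 and 10 against 3 and 3 counts) and Cd8b1 (18 and 17 against 7 and 13) were lower in both EGFP+ libraries. Gzma (9 and 18 against 31 and 31 counts) and Nkg7 (2 and 9 against 13 and 22) were higher. DESeq2 and limma on the rlog values called 0 of the 6, and limma voom called 1. The Foxp3 regulatory T cell markers, a type known for high Icos, Tnfrsf4, Tnfrsf18 and Tnfrsf1b, summed to 382.8 and 376.4 against 389.8 and 432.8 CPM, most of it Il2ra, and Foxp3 had 10 and 6 counts in the EGFP− and 6 and 1 in the EGFP+ libraries. Of the 6 tested regulatory T cell markers, 3 had a positive and 3 a negative log2 fold change. Among these 6, edgeR, DESeq2 and limma voom called 0, with 0 at an unadjusted p under 0.05. Single markers other than those at 0 or taking most of a sum were named after their values were seen. The part of these other cells in the Icos difference was not tested.

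Ctla4, the inhibitory counterpart of CD28 that competes for the same ligands, was higher in EGFP+ T cells as Icos was. It had 57 and 55 counts in the EGFP− and 114 and 129 counts in the EGFP+ libraries, or 78.8 ± 2.04 and 183.4 ± 3.87 CPM (SD, n = 2 each). On the log2 scale the difference was 1.22 (standard error 0.21), with an adjusted p of 7.0e-05 in edgeR and 0.00767 in DESeq2, and it stayed between 1.19 and 1.24 with each library left out. It was the 1 called gene among the 4 inhibitory counterparts listed (Ctla4, Pdcd1, Btla and Tigit), whose median log2 fold change was -0.0022. Cd28, Ctla4 and Icos lie in this order on the plus strand of chromosome 1 in GRCm38, at chr1:60716800-60773359, chr1:60887000-60915832 and chr1:60977927-61000320. No other protein-coding gene lies in the 113.6 kb and 62.1 kb between them. Of this cluster, then, Ctla4 and Icos were called and Cd28 was not, and whether their changes differ from that of Cd28 was not tested.

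The TNF receptor genes on mouse chromosome 4 also lie in groups. Tnfrsf4 (chr4:156013843-156016612) and Tnfrsf18 (chr4:156026164-156028895) are 9.55 kb apart on the plus strand with no protein-coding gene between them, and neither was called. Tnfrsf1b (chr4:145213463-145246870, minus strand) lies 20.3 kb from Tnfrsf8 (CD30), a TNF receptor of activated lymphocytes. Tnfrsf8 had 0 counts in both EGFP− libraries and 11 and 3 counts in the EGFP+ libraries. It was called by edgeR (adjusted p = 0.0282), and its mean was at least 2.58-fold higher than the limit that 3 counts in each EGFP− library would set. The gene passed the filter of 10 counts only through the EGFP+ libraries, where it is high, so that its call adds no support as a count. The call also depended on the test, since limma gave an adjusted p of 0.113 with voom and 0.472 on the rlog values, and DESeq2 gave none.

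Of 90 genes in 7 lists of partners, relatives and signalling genes, 65 were tested, 2 were called (Ctla4 and, passing the filter as described above, Tnfrsf8), a share close to the 4.09% of all tested genes, and the median log2 fold change was 0.07. Among 12 binding partners of the members, 9 had at most 3 counts in every library, including Icosl, Cd80 and Cd86, and Tnfsf4, Tnfsf9, Tnfsf18 and Cd70, the ligands of OX40, 4-1BB, GITR and CD27, were at 0. Tnf, the binding partner with the most counts, had 18 and 15 against 28 and 17 counts and a log2 fold change of 0.56 (adjusted p = 0.572 in edgeR). Of the 3 tested, with a median of 0.56, edgeR called 0 with 1 (Lta) at an unadjusted p under 0.05, and DESeq2 had none and called 0. Lta (lymphotoxin alpha), named after its values were seen, had 12 and 26 counts against 6 and 6, with an adjusted p of 0.0988. The other TNF receptors had 10 of 22 genes tested, 1 of them called, and a median log2 fold change of -0.49, and their most counted gene, Tnfrsf1a (TNF receptor 1), had 18 and 18 against 33 and 22 counts (adjusted p = 0.364). In the SLAM family and CD2 list, 10 of 14 were tested, the median was -0.09 and edgeR called 0, with 1 gene (Slamf7) at an unadjusted p under 0.05, while DESeq2 had none and called 0. Fyn, the kinase that SLAM receptors recruit, had 176 and 147 against 135 and 175 counts.

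Downstream of the receptors, all 20 genes of TNF receptor signalling and all 15 of CD28 and ICOS signalling were tested, and edgeR called 0 in each list. At an unadjusted p under 0.05 edgeR had 3 genes in the first list (Nfkb1, Nfkb2 and Nfkbia) and 2 in the second (Lck and Malt1). DESeq2 called 0 in both and had 1 gene in each, and limma voom called 1 in the first and 0 in the second. Nfkbia, the inhibitor that NF-κB itself induces, had 762 and 729 counts in EGFP− and 557 and 522 counts in EGFP+ T cells, a difference of -0.36 on the log2 scale (standard error 0.13) with an adjusted p of 0.102 in edgeR. Nfkb1 and Nfkb2, the precursors of the p50 and p52 subunits, lay in the same direction, with 68 and 66 against 43 and 41 counts and 51 and 38 against 22 and 22 counts, at adjusted p of 0.235 and 0.0979 in edgeR. They are named because of their unadjusted p. Of the 20 genes in this list, 12 were positive and 8 negative on the log2 scale. Rela and Relb, named after their values were seen, went opposite ways. Rela had 12 and 23 against 29 and 25 counts, and Relb had 24 and 19 against 12 and 12 counts. Their log2 fold changes were 0.72 and -0.73, at adjusted p of 0.379 and 0.452 in edgeR. The medians of the lists were 0.12 and 0.20. Lck, the kinase that starts T cell receptor signalling, had 236 and 206 against 267 and 279 counts and a log2 fold change of 0.41 (adjusted p = 0.108 in edgeR).

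**Figure D5:**
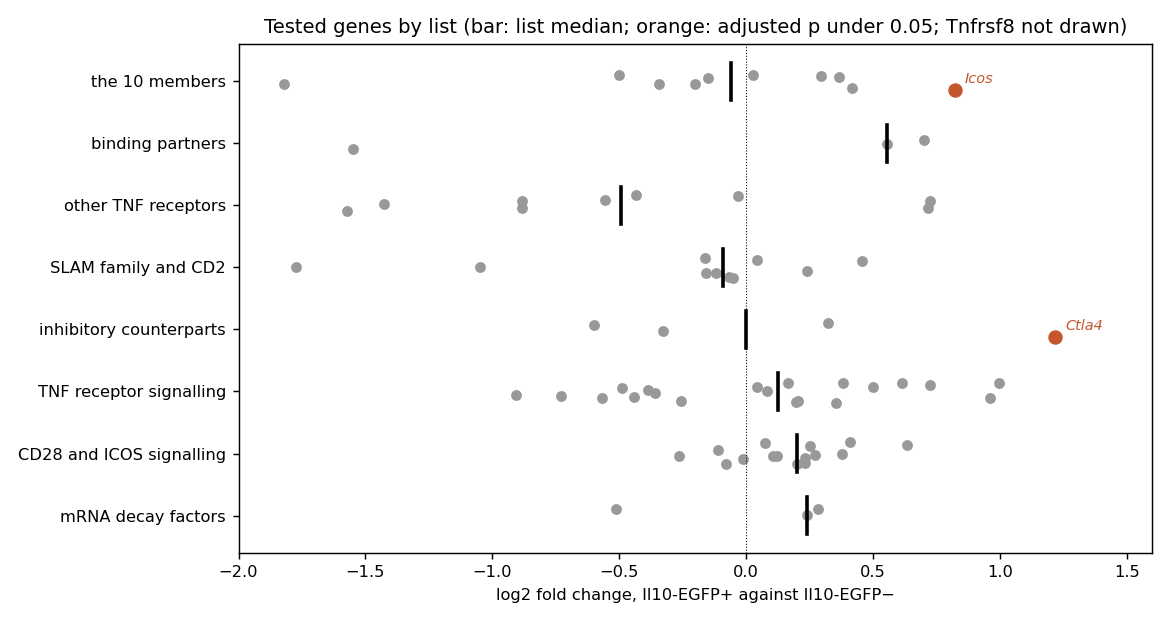
Log2 fold change of every tested gene in the 10 members and in 7 lists of related genes (points, with random vertical spread), with the median of each list as a bar and genes with an adjusted p under 0.05 in orange. Icos at 0.82 and Ctla4 at 1.22 are the called genes drawn, and Tnfrsf8, with 0 counts in EGFP− T cells, is not drawn but counts in its list's median of -0.49.

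Icos mRNA is known to be held down by Roquin-1 (gene Rc3h1), which binds stem loops in 3′ untranslated regions. A stem loop of this kind, the constitutive decay element, is known from Tnf mRNA. Its core letters, TTCTGTGAA, were searched on the sense strand of the longest annotated 3′ untranslated region of each member except Cd226, and of Tnf. The motif was chosen after the values of Icos were seen. Icos was the 1 member of 9 searched that held it, at base 1775 of 2606, where 5 base pairs can form around a loop of 3 bases, and Tnf held it at base 549 of 764, with 6 base pairs. Of 21004 genes, 2.34% had a match in theirs. Both sites are shown because they carry the same core in different surroundings, in GRCm38, 5′ to 3′ on the gene's strand, with the core in capitals; Icos is chr1:60999481-60999505 on the plus strand and Tnf is chr17:35199580-35199604 on the minus strand.
Icos: aacaaaatTTCTGTGAAataaaatc
Tnf: gacatgttTTCTGTGAAaacggagc
A match is a description of letters and not a site of binding. Other stem loops were not searched for, so a member without a match is not shown to lack one. Rc3h1 had 60 and 49 counts in the EGFP− and 34 and 37 counts in the EGFP+ libraries, a log2 fold change of -0.51 (standard error 0.27) with an adjusted p of 0.368 in edgeR. Of the 3 decay factors listed (Rc3h1, Rc3h2 and Zc3h12a), with a median log2 fold change of 0.24, edgeR and DESeq2 called 0, with 0 at an unadjusted p under 0.05, and the rlog values tested with limma gave 0 calls with 1 (Rc3h1) under it.

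RefSeq promoter windows of 300 bases (GRCm38.p6) were taken for the members except Cd226, which was left out beforehand. Windows matched 6 of the 10 members, with 7 in all. They were searched on both strands for an NF-κB motif (GGG, any 2 bases, TTTCC), which 1.63% of 32851 windows hold, and for an AP-1 motif, TGANTCA, which 7.81% hold. Only the window at the downstream start of Tnfrsf9 held either, and it held both, 43 and 15 bases before the start. The stretch from one motif to the other, chr4:150927956-150927990 on the plus strand, is shown because Tnfrsf9, which activation is known to induce, was the 1 member with either motif in these windows. The motifs are in capitals.
Tnfrsf9: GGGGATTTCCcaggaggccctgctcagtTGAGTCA

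The genes whose profile over the 4 libraries was closest to that of Icos, by the distance between centred log2 CPM among 2603 other genes that averaged 50 or more counts, were Wbp4, Rfk and Akna, at distances of 0.0683, 0.101 and 0.105. Rfk, which encodes riboflavin kinase, had 61 and 63 against 95 and 109 counts (log2 fold change 0.82, adjusted p = 0.0124 in edgeR). Akna had 38 and 45 against 67 and 74 counts (0.86, adjusted p = 0.0306), and Wbp4 had 38 and 40 against 62 and 63 counts (0.78, adjusted p = 0.0722). With 4 libraries, such likeness is a description only.

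The counts of 2 members could have been shared with overlapping annotations. Exons of Tnfrsf18 overlap the antisense gene Gm16008, and exons of Cd27 overlap the microRNA gene Mir8113, both with 0 counts in every library. In the last 500 bases of the members' transcripts, where most reads of a 3′ method fall, Tnfrsf18 had 35 of 655 sequences of 50 bases in common with another gene (Gm16008) and the other 9 members had none.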

How the data were processed

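The authors deposited whole-number counts of reads per Ensembl gene and rlog values on a log2 scale, both for 2 Il10-EGFP+ and 2 Il10-EGFP− libraries (5 ng of RNA, 22 PCR cycles, each run on 4 lanes). The submitters' processing notes name STAR 2.5.2a, HTSeq 0.6.0, DESeq2 and GRCm38. Per the labels and the methods, unique molecular identifiers served to judge duplicates and remove the bias of amplification. The strand option, the annotation release and whether the deposited counts are the collapsed ones were not given in the sources used here. No per-sample column was left unused.

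Genes that summed to 10 or more counts (9608, holding 99.3% to 99.4% of the counts) were tested with edgeR 4.0.16 (glmQLFit and glmQLFTest with default settings, TMM factors, R 4.3.3) and Benjamini-Hochberg adjustment at 0.05. Standard errors came from the F statistic and intervals are unadjusted. DESeq2 1.42.0, limma 3.58.1, other filters and scalings, a stricter threshold, a term for the replicate number and fits without 1 library were the alternatives. The fit was tested on simulated counts. The study names DESeq2 for this step. Symbols were matched for 47224 of 47643 identifiers, and coordinates and 3′ untranslated regions came from GENCODE M21.

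The members and lists were chosen with earlier results of these data known. Named were all members, every called gene and the most counted tested gene of each pathway list, the 3 profiles nearest to a called member, and markers at 0 or taking most of a sum. Other genes, single markers included, are marked as named after their values were seen. Replicates of a population differed by more than counting noise (chi-square per degree of freedom 2.37 and 2.10), so that no library was a copy of another.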

Additional observations from a re-analysis of the deposited data

How the results depend on the processing

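The number of members called was 1 (Icos) under every alternative run. The count of all genes called, 393 with edgeR, was 112 with DESeq2, 197 with limma on the rlog values, 177 at an adjusted p under 0.01 and 212 to 272 with a library left out, where fewer samples enter. The 2 other pathway genes called became 1 with at least 10 counts in every library, with DESeq2, on the rlog values and at an adjusted p under 0.01, and 1 to 2 with a library left out. Same-numbered libraries deviated from their population's mean with a correlation of 0.0315 over 4965 genes, and the main test did not take the numbers as pairs. With 2 libraries in a population, such a correlation cannot exclude that same-numbered libraries came from the same mouse. With a replicate block, edgeR called 560 genes, 1 member and 4 pathway genes (1 of them in TNF receptor signalling and 1 in CD28 and ICOS signalling), and DESeq2 called 39 genes, 1 member (Icos, adjusted p = 0.00969) and 0 pathway genes, with 2 of them at an unadjusted p under 0.05 and Ctla4 at an adjusted p of 0.0823. Log2 fold changes of 3 uncalled members changed sign with a library left out. Tnfrsf4 ran from -0.32 to 0.0067 and Tnfrsf9 from -0.71 to 0.19, both positive when the second EGFP+ library was dropped, and Tnfrsf18 ran from -0.19 to 0.27, with -0.19 when the first EGFP− library and -0.10 when the first EGFP+ library was dropped. Leaving out a library leaves its population with 1, which is assumed to vary like the other population. The cause of these differences was not tested. Counts were low for Cd226 (1 to 12) and for Tnfrsf1b and Slamf1 (21 to 39), and the size of difference detectable there was not tested.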
